A study of Mus musculus with 28 samples.

Results

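This report describes 9 genes that control entry into and passage through the G1 phase of the cell cycle in mouse bone cells: the D-type cyclins Ccnd1, Ccnd2 and Ccnd3, the CIP/KIP inhibitors Cdkn1a, Cdkn1b and Cdkn1c, the INK4 inhibitors Cdkn2a and Cdkn2b, and the transcription factor gene Myc. They were taken by name from the 22225 protein-coding genes of the GENCODE M1 annotation (build mm9), each with its gene body and 100 kb on either side. The windows of Cdkn2a and Cdkn2b overlap, so the 9 genes occupy 8 separate windows with a total length of 1789 kb. The study used IDG-SW3, a clonal mouse bone line that is grown at 33 °C with interferon gamma and is then moved to 37 °C and osteogenic medium without interferon gamma. The line carries a Dmp1-promoter GFP transgene and a temperature-sensitive, interferon-inducible SV40 large T antigen, a protein known to bind RB and p53. Every library came from this line, so all groups share both transgenes. Chromatin immunoprecipitation with sequencing was done at day 35 for the vitamin D receptor (VDR) and the retinoid X receptor (RXR) after 3 h of 100 nM 1,25(OH)2D3 (written 1,25D3) or of vehicle, in 2 replicates per arm. A set of 9 histone marks was mapped at day 3 and day 35, with 1 library per mark and day and no hormone treatment named in the labels. For the mark that the sample labels call H4K5Ac, the protocol text writes H3K5Ac, and the name on the samples is used here. The labels call the cells of both days osteocytic, and the days differ in temperature history, interferon gamma and time in osteogenic medium together. Nothing beyond the replicate numbers says whether the factor replicates came from separate cultures.

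D-type cyclins bind and activate CDK4 and CDK6, which phosphorylate RB and release E2F factors for DNA synthesis. INK4 proteins (p16Ink4a from Cdkn2a and p15Ink4b from Cdkn2b) block CDK4 and CDK6, CIP/KIP proteins (p21, p27 and p57 from Cdkn1a, Cdkn1b and Cdkn1c) block cyclin-CDK complexes more broadly, and a further product of Cdkn2a, p19Arf, stabilises p53. MYC drives growth and proliferation genes, and in many cell types the vitamin D hormone slows proliferation through VDR and RXR, which bind as a pair to direct repeats of a hexamer spaced by 3 bases (DR3 elements).

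The deposited lists hold called regions with the authors' own peak score and no read counts. VDR lists held 291 and 342 peaks with vehicle and 1618 and 1333 with 1,25D3, and RXR lists 6875 and 4093, and 10333 and 7635. The histone lists ranged from 9360 regions (H3K4me3 at day 35) to 100123 (H3K4me1 at day 35). Without the depth of the libraries the precision of a single list is unknown, and a region that is not listed may be a missed one. In such bulk samples a mark in fewer cells and less of the mark per cell cannot be told apart. Of 12 osteoblast and osteocyte marker genes, 10 had H3K27Ac, a mark of active promoters and enhancers, within 1 kb of a start site at both days. Sost and Fgf23, which define mature osteocytes, had none at either day. Of 10 markers of other cell types, 2 had H3K27Ac at a start site at day 3 and 5 at day 35, and coverage at day 35 ranged from 0% to 45.5% (Sfpi1, a haematopoietic factor gene), with Myod1, Cdh5 and Snap25 at 0%. Both adipocyte markers had more H3K27Ac at day 35, Fabp4 with 3.96% and 29.9% and Adipoq with 2.33% and 14.9%. The part of other cells in the results below was not tested.

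Near these genes 5 VDR sites were called in both 1,25D3 replicates, and 3 of them overlapped no vehicle peak. The central 200 bases of 2 of these sites, called in the hormone lists and in neither vehicle list, are shown (mm9, plus strand). Capitals mark the hexamers of the best DR3 match, with 1 mismatch allowed over both hexamers.
Myc +40.9 kb, chr15:61857723-61857922: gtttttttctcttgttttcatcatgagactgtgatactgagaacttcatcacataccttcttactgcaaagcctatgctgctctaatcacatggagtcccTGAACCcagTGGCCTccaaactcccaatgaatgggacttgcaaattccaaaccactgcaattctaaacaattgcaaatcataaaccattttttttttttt
Cdkn1b -76.0 kb, chr6:134794272-134794471: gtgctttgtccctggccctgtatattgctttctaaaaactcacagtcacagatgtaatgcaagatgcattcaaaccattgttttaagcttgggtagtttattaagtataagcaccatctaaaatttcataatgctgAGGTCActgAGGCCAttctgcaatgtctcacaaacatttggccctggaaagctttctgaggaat
The half-sites searched were the hexamer AGGTCA and its variants with G at the first base, T at the third base or G at the fifth base, in any combination, as a direct repeat with a spacing of 3 bases on either strand. In the direction of the element, Myc +40.9 kb read AGGCCActgGGTTCA on the minus strand and Cdkn1b -76.0 kb read AGGTCActgAGGCCA on the plus strand. A match with at most 1 mismatch stood in 4 of the 5 VDR sites near these genes, against 40.2% of all 1218 VDR sites, 51.6% of the 893 without a vehicle peak and 4.52% of windows 2 kb to either side. None of the 5 had a match without a mismatch, a form present in 12.2% of all VDR sites. One of the matches lay at the Bysl start in the window of Ccnd3, and the site at the Frs3 start had none.

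Of the 12 RXR sites of both 1,25D3 replicates, the 2 that lay at VDR sites held a DR3 match, and the other 10 had none. A different motif was seen in 3 of the 12. This is TGANTCA, the element bound by AP-1, which was searched after the sequences had been read and is the same on both strands. The 3 sites are shown with this motif in capitals (mm9, plus strand).
Myc +64.2 kb, chr15:61881083-61881282: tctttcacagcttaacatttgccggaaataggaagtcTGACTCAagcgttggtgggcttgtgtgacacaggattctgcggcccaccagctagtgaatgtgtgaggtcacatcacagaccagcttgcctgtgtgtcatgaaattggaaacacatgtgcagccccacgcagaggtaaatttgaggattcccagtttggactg
Myc +94.3 kb, chr15:61911113-61911312: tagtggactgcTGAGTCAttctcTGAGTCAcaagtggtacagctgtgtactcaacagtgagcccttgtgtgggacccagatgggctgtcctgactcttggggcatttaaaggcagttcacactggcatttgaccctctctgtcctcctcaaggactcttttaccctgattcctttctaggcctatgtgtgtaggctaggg
Cdkn2a -77.0 kb, chr4:89017479-89017678: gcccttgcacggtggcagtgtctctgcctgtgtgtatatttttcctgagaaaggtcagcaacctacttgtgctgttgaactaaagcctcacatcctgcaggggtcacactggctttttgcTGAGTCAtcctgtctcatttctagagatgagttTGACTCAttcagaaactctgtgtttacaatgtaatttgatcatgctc
Myc +94.3 kb and Cdkn2a -77.0 kb each held 2 copies and Myc +64.2 kb held 1. The share of 25.0% (3 of 12) was below the 35.7% of all 6783 RXR sites, and windows 2 kb to either side held the motif in 6.27% of cases. None of the 5 VDR sites held it, against 21.8% of all VDR sites. A match is a description of the sequence, and binding by AP-1 was not measured.

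VDR peaks were listed at Myc and Cdkn1b with the hormone alone, at Ccnd3 in both arms, and at none of the other 6 genes. In the 8 windows together, the 2 vehicle libraries held 2 and 2 VDR peaks and the 2 hormone libraries 5 and 5. Both vehicle peaks and 2 of the 5 hormone peaks lay in the window of Ccnd3, so every added VDR peak belonged to Myc (2 in each replicate) or Cdkn1b (1 in each replicate). The difference of 3 peaks had an exact two-sided permutation p of 0.333, the smallest that 2 libraries against 2 allow. With lists limited by score to the length of the shortest VDR list, the difference was -1.5 (exact permutation p = 0.333): all 5 hormone peaks of each replicate, those of Ccnd3 included, ranked from 327 to 860 by score, below the 291 kept. As a share of each list the windows held 0.687% and 0.585% of vehicle VDR peaks and 0.309% and 0.375% of hormone VDR peaks. A VDR site of both hormone replicates lay near 3 of the 9 genes, beside 18.1% of all genes, and a site without a vehicle peak near 2, beside 10.8%. With vehicle the count was 1 of 9, beside 7.65%. Within 10 kb of the gene bodies the count was 0 in both arms, so every VDR site of the group is distal to its gene.

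RXR was called at more of the genes. The vehicle libraries held 8 and 5 RXR peaks in the windows (6.5 ± 2.12, SD, n = 2) and the hormone libraries 19 and 13 (16 ± 4.24, n = 2), so the arms did not overlap. The difference was 9.5 peaks (exact two-sided permutation p = 0.333). Limited to the length of the shortest RXR list it was -1 (exact permutation p = 0.667), so the direction rests on where the lists end. The windows held 0.116% and 0.122% of the vehicle RXR peaks and 0.184% and 0.170% of the hormone RXR peaks. An RXR site of both replicates lay near 4 of the 9 genes with vehicle (Ccnd1, Ccnd2, Cdkn1a and Myc), beside 30.5% of all genes, and near 7 with 1,25D3, beside 45.0%. An RXR site without a vehicle peak lay near 3 (Cdkn1a, Cdkn1b and Myc), beside 14.6%. Cdkn1b, Cdkn2a and Cdkn2b joined with the hormone, and Ccnd3 and Cdkn1c had no site. Among the 10500 genes with H3K4me3 at a start site at day 3, a state that all 9 genes shared, 24.3% had a VDR site and 58.6% an RXR site with 1,25D3. Cdkn1c, an imprinted gene, had 0 peaks in all 8 factor lists.

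**Figure D1:**
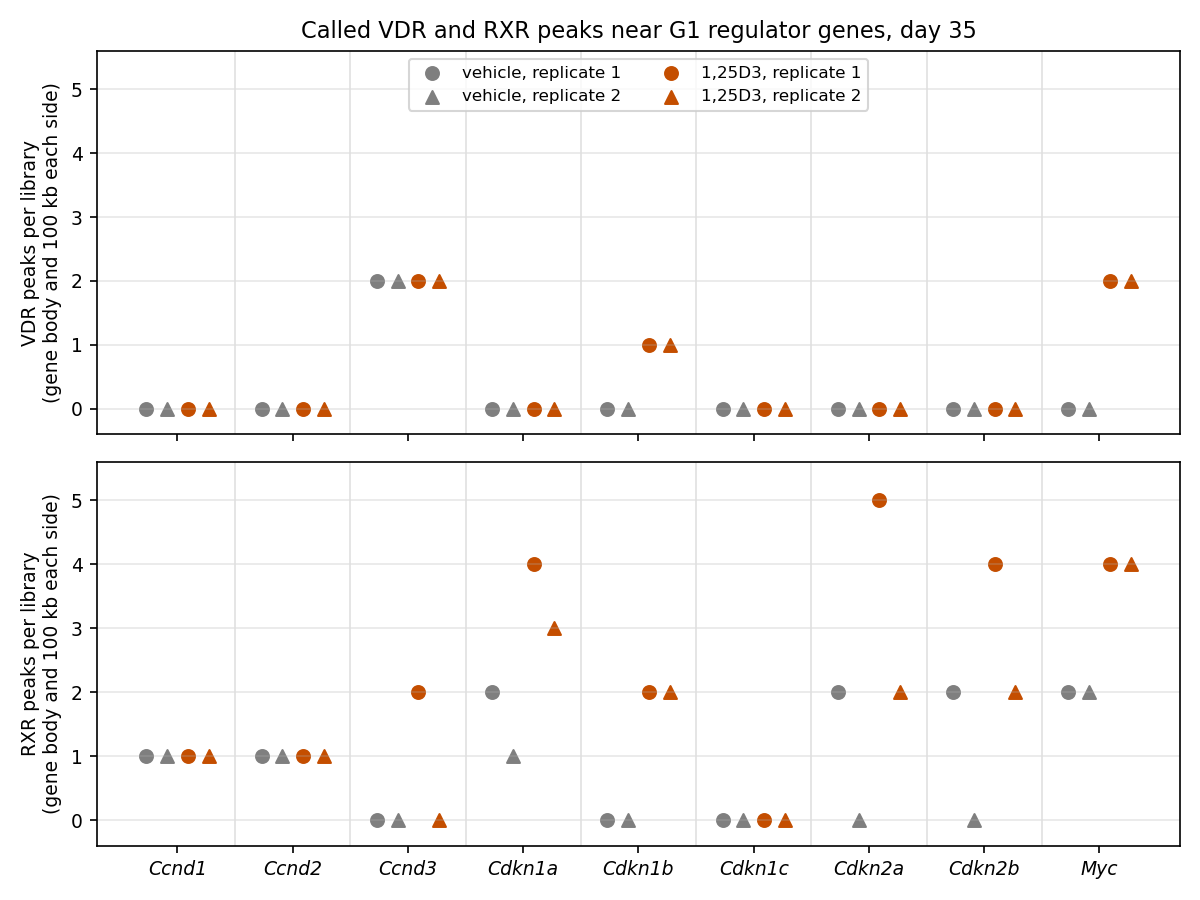
Number of called VDR (top) and RXR (bottom) peaks within the gene body and 100 kb on each side, for each of the 9 genes; grey points are vehicle libraries and orange points 1,25D3 libraries, circles replicate 1 and triangles replicate 2. VDR peaks differ between the arms at Cdkn1b and Myc alone, whereas RXR peaks reach 5 at Cdkn2a in hormone replicate 1 and 2 in replicate 2.

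Myc held the largest number of receptor sites. Its window contains no other protein-coding gene, and the long noncoding RNA gene Pvt1 starts 52.6 kb downstream of the Myc start on the same strand. The VDR site 40.9 kb downstream (chr15:61857664-61857980, intergenic) had scores of 11.3 and 9.8 with 1,25D3 and no vehicle peak, and no RXR peak overlapped it in any library. It overlapped 0 of the 9 histone marks at day 3 and 2 at day 35, H3K4me1 and H4K5Ac. The VDR site 83.1 kb downstream lies in an intron of Pvt1, 30.5 kb from its start. Its VDR scores were 14.6 and 19.3, RXR was called there in both hormone replicates (6.6 and 7.2), and neither factor was called in a vehicle library. This site already overlapped 5 marks at day 3, H3K27Ac among them, and 7 at day 35.

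RXR was called at 4 places in the Myc window with 1,25D3. The site 1.99 kb upstream of the first Myc start (chr15:61814798-61815112) was called in all 4 RXR libraries, with scores of 7.8 and 7.7 in vehicle and 5.2 and 9.1 with hormone. The site 94.3 kb downstream, in a Pvt1 intron, was also called in all 4, at 11.1 and 7.1 in vehicle and 11.8 and 12.3 with hormone. The site 64.2 kb downstream, 11.6 kb inside Pvt1, appeared with hormone alone (6.6 and 8.7). The scores of the arms overlap at the upstream site and do not at the site 94.3 kb downstream, and they have no stated common scale. How often the arms separate over all RXR sites was not counted.

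**Figure D2:**
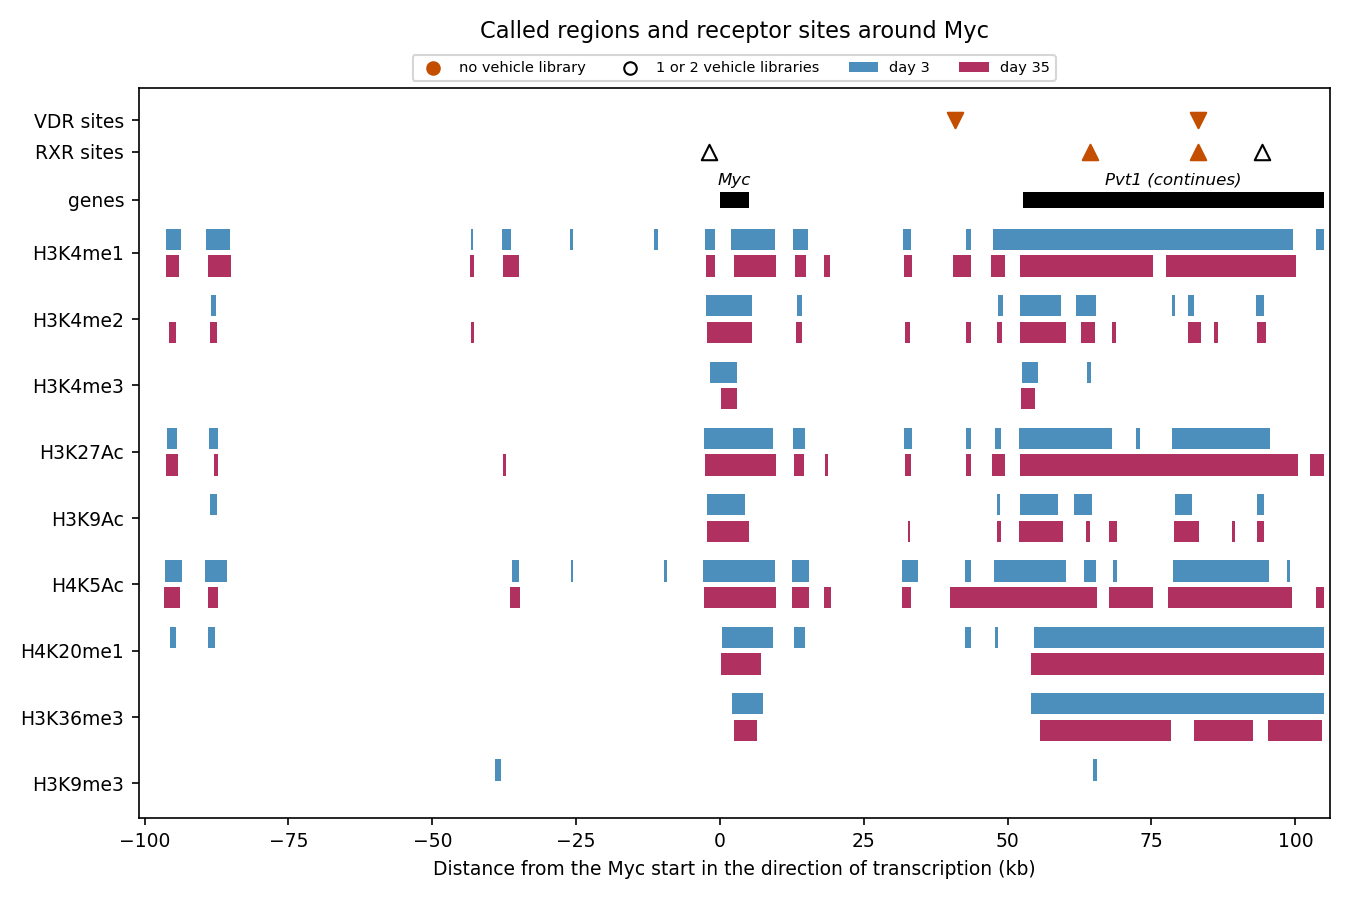
Called regions of 9 histone marks at day 3 (blue) and day 35 (red) and receptor sites of both 1,25D3 replicates (triangles, filled where no vehicle library had a peak) in the Myc window, with distance from the Myc start in kb on the horizontal axis. The 3 RXR sites downstream and 1 of the 2 VDR sites lie in Pvt1, where more sequence is covered by H3K27Ac at day 35 than at day 3.

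Cdkn1b, which encodes p27, had 1 place where both receptors appeared with the hormone. This VDR site lies 76.0 kb upstream of its start, in an intron of Crebl2 and 14.1 kb from the Crebl2 start (chr6:134794205-134794538). VDR scores were 11.3 and 13, RXR scores 11.6 and 10, and no vehicle library of either factor had a peak. The site overlapped 4 marks at day 3 and 5 at day 35, H3K27Ac at both, and H3K4me2 was the one added. Crebl2 is the nearer gene, and the files do not tie the site to either. Near Cdkn1b each hormone replicate held 1 further RXR peak, at different positions, so neither counted as a site.

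Cdkn1a, which encodes p21 and is a long-known vitamin D target in other cells, had 0 VDR peaks in all 4 libraries. RXR was called at 3 places with 1,25D3. The site 34.5 kb upstream (chr17:29193227-29193716) was called in all 4 libraries, with scores of 10.1 and 6.6 in vehicle and 4.8 and 8.3 with hormone, and its nearest protein-coding start is that of Srsf3, a splicing factor gene. The site 12.0 kb upstream (chr17:29215761-29216075) was called with hormone alone (6.1 and 7) and covers the start of Gm16197, a long noncoding RNA gene. The third, 45.6 kb downstream in an intron of Rab44 and 1.48 kb from its start (chr17:29273321-29273643), was also called with hormone alone (8.7 and 7). Its H3K27Ac was called at day 35 and not at day 3. A further RXR peak inside the gene was called in replicate 1 of both arms and in neither replicate 2 library.

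At the neighbouring genes Cdkn2a and Cdkn2b 2 RXR sites were shared by both windows and no VDR peak was called. Cdkn2a has an upstream start for p19Arf and, 12.5 kb downstream, a start for p16Ink4a. The first RXR site lies 135 bp upstream of the p16Ink4a start (chr4:88928074-88928388). It scored 5.5 and 7 with hormone and 6.6 in vehicle replicate 1, and was not called in vehicle replicate 2. The second lies 77.0 kb upstream of the Arf start and 60.6 kb upstream of Cdkn2b (chr4:89017401-89017755), with 11.6 and 5.9 with hormone and 5.8 in vehicle replicate 1. Both sites therefore differ between the arms in replicate 2 alone. Another 3 RXR peaks near Cdkn2a were called in hormone replicate 1 and not in replicate 2.

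The cyclin genes showed no receptor site that was new with the hormone. At Ccnd1 the RXR site 3.53 kb upstream of the start (chr7:152129150-152129464) was called in all 4 libraries, at 6.8 and 8.8 in vehicle and 7.5 and 7.6 with hormone, so the arms overlap. At Ccnd2 the RXR site 93.7 kb downstream of the start (chr6:127007249-127007569) scored 12.5 and 12.6 in vehicle and 8.7 and 9.6 with hormone, lower in both hormone libraries. It lies 15.5 kb from the start of Fgf23, the phosphate hormone gene of osteocytes and the nearest protein-coding gene. At Ccnd3 both VDR sites stood at starts of neighbouring genes, 203 bp from that of Bysl, a ribosome assembly factor (11.7 and 26.8 in vehicle, 16.7 and 20.5 with hormone), and 149 bp from that of Frs3, an FGF receptor adaptor (7.3 and 3.4 in vehicle, 13.2 and 10.7 with hormone). The scores of the arms overlap at Bysl and are higher in both hormone libraries at Frs3. For Frs3 and the Ccnd2 site, the share of all sites with such separated scores was not counted. The scores have no stated common scale. Neither site overlapped an RXR peak, and both lay outside the Ccnd3 gene, 106.2 and 190.0 kb downstream of its first start. RXR had 2 peaks in the Ccnd3 window in hormone replicate 1 and 0 in the other 3 libraries.

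**Figure D3:**
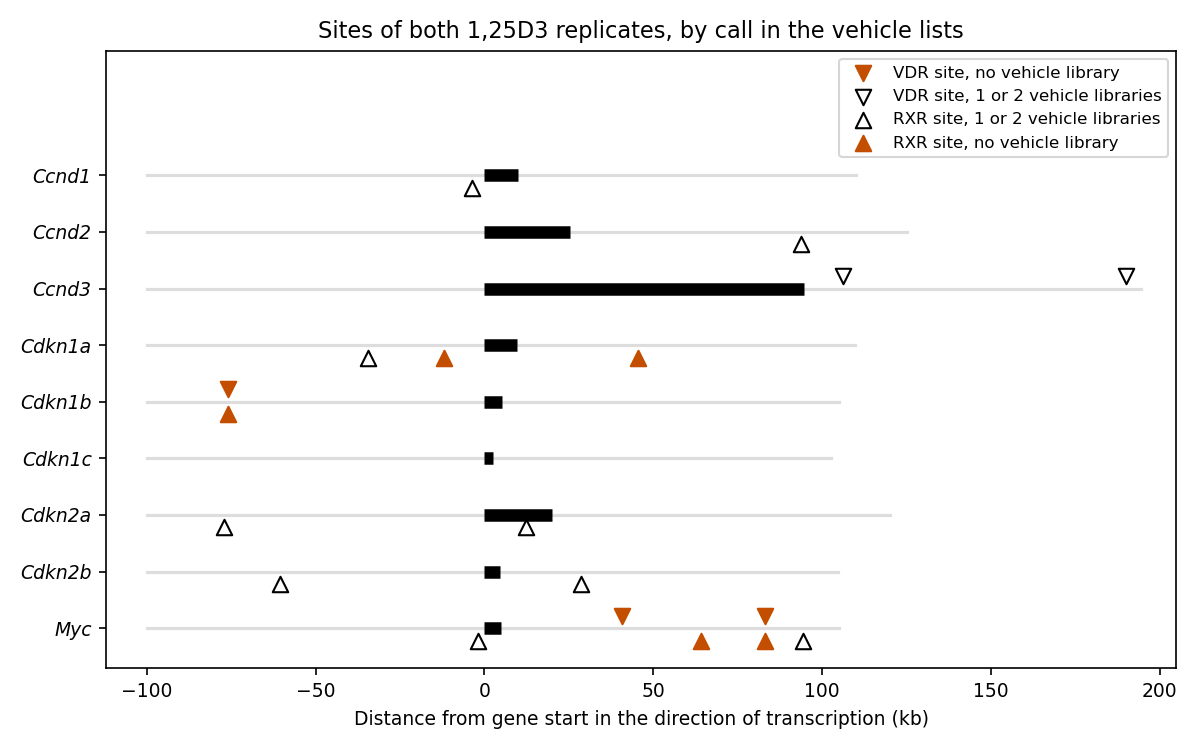
Position of each site called in both 1,25D3 replicates, in kb from the gene start in the direction of transcription (black bar, gene body; grey line, window of 100 kb on each side); downward triangles are VDR and upward triangles RXR, filled where no vehicle library had a peak. The filled VDR triangles are at Cdkn1b and Myc, and the sites that Cdkn2a and Cdkn2b share are drawn on both lines.

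Against all sites of their factor, the sites near these genes showed mixed shares. Of 5 VDR sites, 3 had no vehicle peak, compared with 73.3% of all VDR sites, and 2 overlapped an RXR site, compared with 57.7%. Of 12 RXR sites, 5 had no vehicle peak, compared with 19.2% of all RXR sites, and 2 overlapped a VDR site, compared with 10.4%. H3K27Ac covered 11 of the 12 RXR sites at day 3 and 12 at day 35, close to the 90.3% and 95.0% of all RXR sites. The mark of transcribed gene bodies, H3K36me3, covered 6 of the 12 at day 3 and 2 at day 35, against the 18.5% and 10.5% of all RXR sites. These counts are small and describe the lists.

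All 9 genes had H3K4me3, the mark of active starts, within 1 kb of a start site at both days, beside 47.2% of all genes at day 3 and 41.9% at day 35. Coverage below means the share, in percent, of a gene and its 5 kb flanks that called regions of a mark occupied, and a difference between days is in percentage points. With 1 library per mark and day no such difference could be tested. Active chromatin was called more extensive where H3K27Ac rose by over 10 points and H3K9Ac and H4K5Ac rose too, and less extensive where all 3 went down in the same way. By this rule 3 of the 9 genes, Ccnd1, Ccnd2 and Cdkn1a, had more at day 35, beside 11.5% of all genes and 18.3% of genes with H3K4me3 at a start site at day 3. None had less, beside 4.11% and 5.72%. The call depends on the flank: with 20 kb on each side it held for Ccnd2 and Cdkn1a, with 100 kb for Cdkn1a, and within 2 kb of start sites for 0 of the 9. The median change of H3K27Ac over the 9 genes was 2.06 points, against 0 over all genes and 1.99 over those with H3K4me3.

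**Figure D4:**
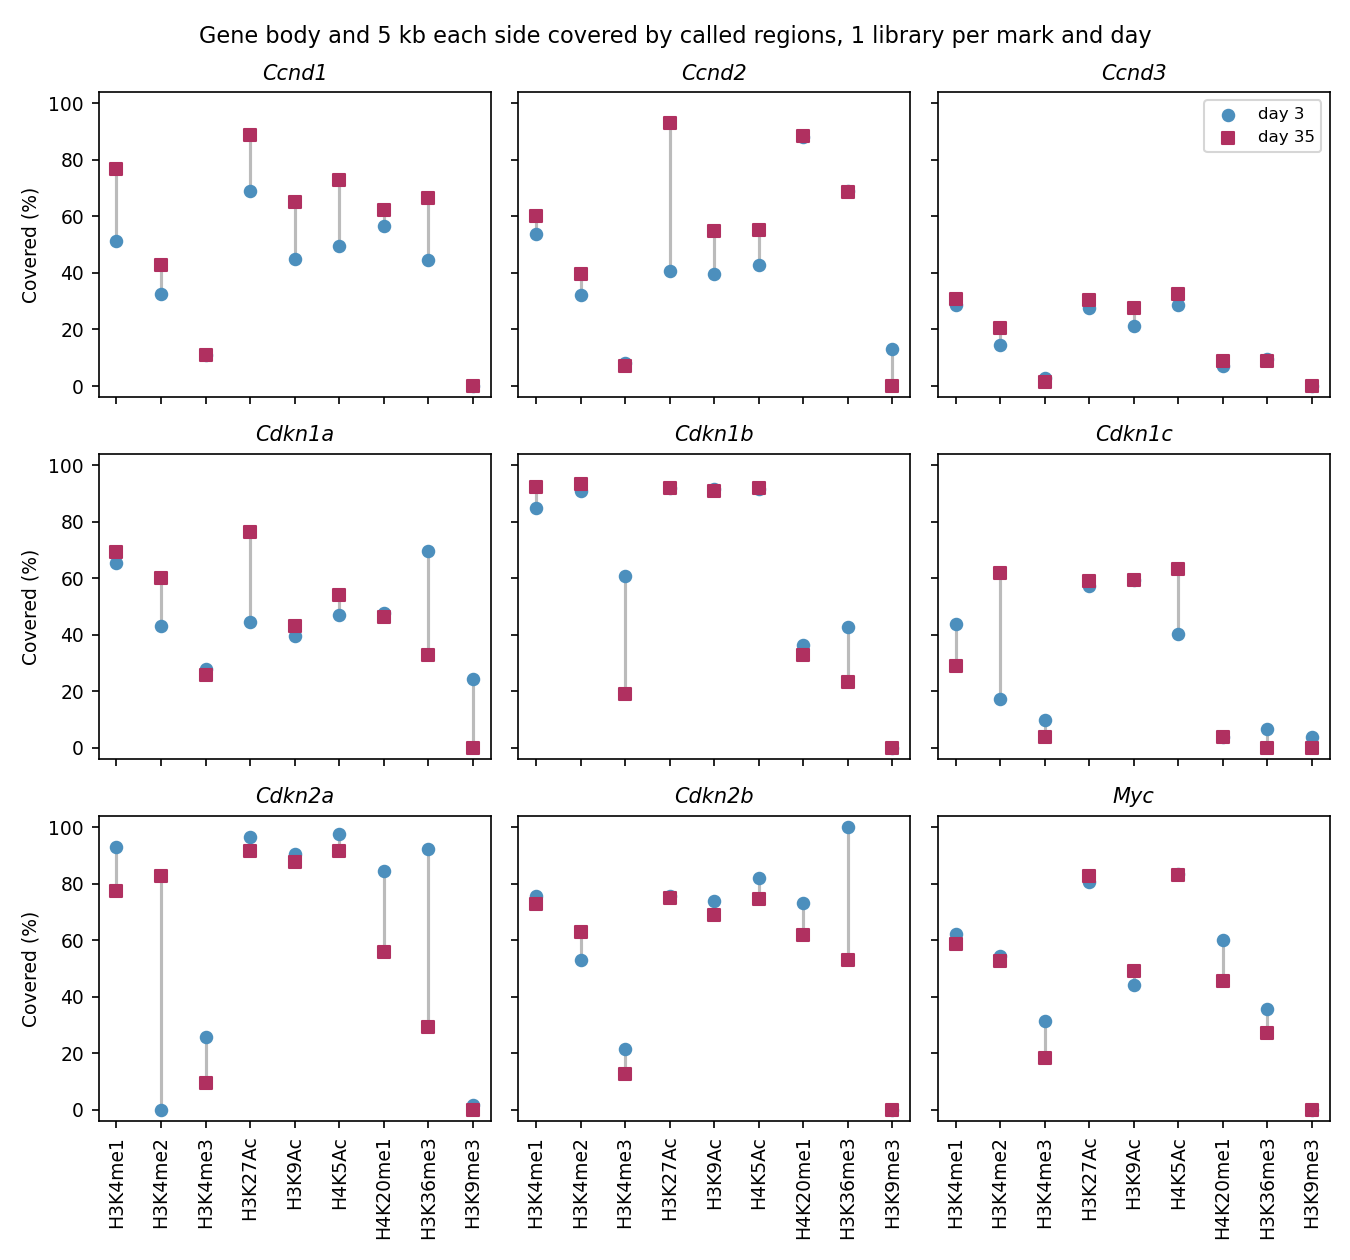
Percent of each gene body and 5 kb on each side covered by called regions of 9 histone marks at day 3 (blue circles) and day 35 (red squares), with 1 library per point. H3K27Ac is higher at day 35 at Ccnd1, Ccnd2 and Cdkn1a, H3K4me3 lower at Cdkn1b, Cdkn2a and Myc, and H3K36me3 lower at Cdkn1a, Cdkn1b, Cdkn2a and Cdkn2b.

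Among the cyclin genes, Ccnd1 and Ccnd2 carried broader acetylation at day 35 and Ccnd3 changed little. At Ccnd2 H3K27Ac went from 40.8% to 93.0% of the gene, a rise matched by 0.558% of all genes, and its widest region from 13.5 to 33.3 kb. H3K9Ac went from 39.7% to 54.9% and H4K5Ac from 42.9% to 55.3% there, while H3K36me3 stayed at 69.0% and 68.7%. H3K9me3, a mark of silent chromatin, covered 13.2% of Ccnd2 with its flanks at day 3, all of it upstream of the gene, and 0% at day 35. At Ccnd1 H3K27Ac went from 68.9% to 89.0%, H3K4me1 from 51.4% to 76.8%, and H3K36me3 from 44.7% to 66.7%. Ccnd1 with its flanks was the only one of the 9 whose H3K36me3 rose by over 10 points, beside 10.7% of all genes. The longest stretch called at day 35 alone, 4.34 kb centred 12.1 kb downstream of the Ccnd1 start, lay past the end of the 9.94 kb gene. It lies inside the neighbour Oraov1, which ends inside Ccnd1 and whose H3K36me3 coverage went from 57.4% to 74.0%. The rise is therefore one of the Ccnd1 flank and not of its gene body. Ccnd3, spread over 94.6 kb with 2 starts, had H3K27Ac at 27.5% and 30.4%.

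Cdkn1a gained H3K27Ac and lost H3K36me3 upstream of and around its main start. H3K27Ac covered 44.6% at day 3 and 76.4% at day 35, its region there widening from 8.80 to 32.8 kb. The wider region took in a stretch, from -14.9 to -6.46 kb relative to the gene start, that already had H3K27Ac at day 3. In the window of 100 kb on each side H3K27Ac covered 49.3 and 87.2 kb. H3K36me3 went from 69.7% to 32.9% and H3K9me3 from 24.3% to 0%. The H3K36me3 region ran from -3.43 to 10.3 kb relative to the gene start at day 3 and from 3.81 to 10.3 kb at day 35. It thus still reached the end of the 9.74 kb gene. H3K4me3 stayed at 28.0% and 25.8%, and its region over the start ranked 14 of 11283 by score at day 3 and 40 of 9360 at day 35, near the top of both lists. At the start site of the main transcript (1 kb on each side) H3K36me3 covered 100% at day 3 and 0% at day 35, whereas all 3 acetyl marks covered 100% at both days.

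Cdkn1b had the greatest drop of H3K4me3 coverage in the group, in the gene and its flanks, while acetylation covered nearly the whole gene at both days. H3K4me3 went from 60.9% to 18.9%. Its region over the start narrowed from 4.66 to 2.36 kb. In the flanks, a region downstream of the gene went from 3.90 to 0.5 kb, and an upstream one of 0.638 kb was not listed at day 35. A drop as large was seen in 0.036% of all genes, whose median H3K4me3 coverage at day 3 was 0.594%. H3K27Ac covered 91.8% at both days, and H3K9Ac and H4K5Ac stayed above 90%, near the highest value that coverage can take. By the authors' score the same regions stood lower in the day 35 lists: H3K9Ac ranked 24 of 51466 at day 3 and 114 of 56355 at day 35, H3K27Ac 190 and 753, and H4K5Ac 450 and 1596. The H4K5Ac region was 46.8 kb wide at day 3 and 18.4 kb at day 35. Beyond the gene a long domain receded: H3K36me3 in the window went from 85.2 to 52.0 kb, with 1 stretch of 29.0 kb, centred 24.9 kb downstream of the start, called at day 3 alone. H4K20me1, a mark deposited in a cell-cycle-dependent way, lost a stretch of 22.0 kb centred 20.5 kb downstream. With 20 kb on each side counted, Cdkn1b was the 1 gene called less active at day 35, with an H3K27Ac change of -11.8 points. No protein-coding gene starts within this stretch, and the next one, Apold1, starts 61.6 kb downstream.

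Cdkn1c, small and imprinted, had acetylation with little H3K4me3. H3K27Ac covered 57.3% and 59.2%, H4K5Ac 40.4% and 63.4%, and H3K4me2 17.2% and 61.8%, a rise matched by 0.076% of all genes. Its H3K4me3 region shrank from 1.27 to 0.5 kb and ranked 7724 of 11283 at day 3 and 9145 of 9360 at day 35, among the lowest-scoring of that list. H3K36me3 covered 6.70% and 0%.

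Cdkn2a and Cdkn2b stood in a single block of H3K27Ac and H4K5Ac at both days. The H3K9Ac region over both genes was 39.8 kb wide at day 3, and at day 35 they had separate H3K9Ac regions of 26.5 and 10.1 kb. One H3K27Ac region spanned both genes, 41.9 kb wide at day 3 and 40.3 kb at day 35, and ranked 43 of 67163 and 162 of 67302 by score. Inside this block H3K36me3 receded: it covered 92.2% of Cdkn2a at day 3 and 29.4% at day 35 (a drop matched by 0.238% of all genes), and 100% and 52.8% of Cdkn2b. H4K20me1 went from 84.6% to 55.9% and from 73.1% to 62.0%. The 2 starts of Cdkn2a differed. H3K4me3 filled the 1 kb on each side of the Arf start at day 3 (100%) and most of it at day 35 (89.4%). Around the p16Ink4a start it went from 100% to 38.1%, and H3K36me3 there from 100% to 0%. H3K27Ac, H3K9Ac and H4K5Ac covered both starts in full at both days.

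The lists also held 2 gaps in this locus. At day 3 no H3K4me2 region was listed in Cdkn2a, although H3K4me3 covered 25.7% of it, while at day 35 one H3K4me2 region of 25.0 kb took the coverage to 82.8%. Of 557 genes with at least 20% H3K4me3 coverage at day 3, 3 (0.539%) had no listed H3K4me2, a count made after the gap was seen. Upstream, an H3K27Ac region of 26.9 kb (from -72.8 to -99.7 kb relative to the Arf start) overlapped no H4K5Ac region at day 3. It was the only such case among 935 H3K27Ac regions of at least 20 kb at day 3, and at day 35 a single H4K5Ac region of 26.8 kb lay over the same stretch. The same stretch lost an H3K36me3 region of 60.6 kb, which reached beyond the window, and its H3K27Ac was split into 4 regions of 1.44 to 7.44 kb at day 35. The RXR site 77.0 kb upstream lies in it. The cause of these gaps was not tested.

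**Figure D5:**
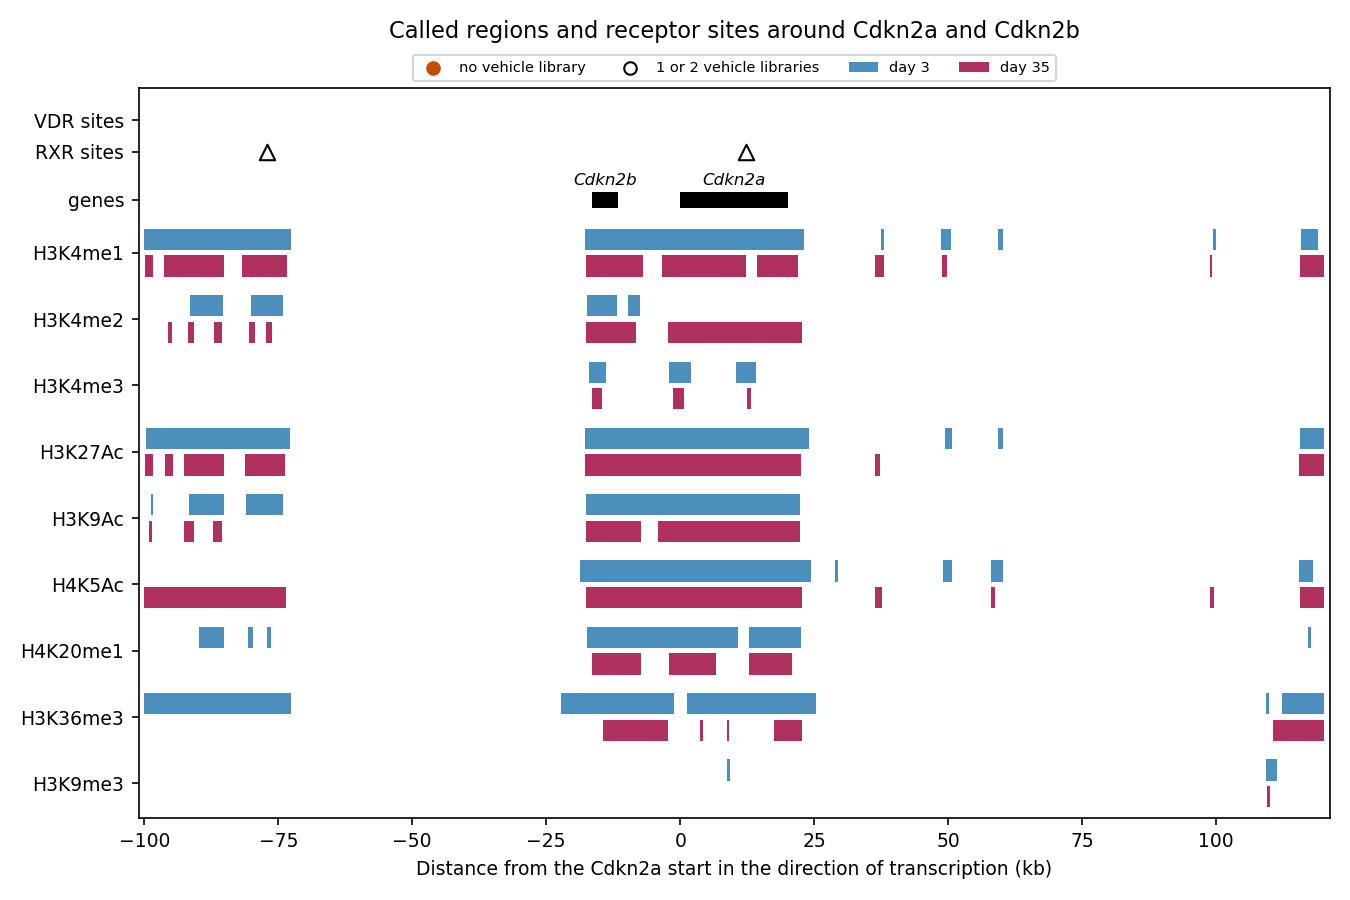
Called regions of 9 histone marks at day 3 (blue) and day 35 (red) and RXR sites of both 1,25D3 replicates (open triangles, called in 1 vehicle library) around Cdkn2a and Cdkn2b, with distance from the Arf start in kb on the horizontal axis. H3K27Ac spans both genes at both days, H3K4me2 over Cdkn2a and H4K5Ac upstream are listed at day 35 alone, and H3K36me3 is shorter at day 35.

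Myc had high acetylation at both days with narrower H3K4me3 at day 35. H3K27Ac covered 80.5% and 82.6% of the gene and H4K5Ac 83.3% and 83.0%. H3K4me3 went from 31.3% to 18.5%, and its region from 4.70 to 2.77 kb. The narrowing was on the upstream side: around the first start (1 kb on each side) H3K4me3 went from 100% to 39.9%, while around the downstream start of transcript Myc-003 it stayed at 100%. H4K20me1 went from 59.9% to 45.4%. Outside the gene acetylation extended: in the window H3K27Ac covered 54.5 kb at day 3 and 72.9 kb at day 35. The longest new stretch, 5.44 kb centred 75.8 kb downstream, lies in Pvt1 between the RXR site at 64.2 kb and the shared VDR and RXR site at 83.1 kb.

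Over the 9 genes H3K4me3 coverage was lower at day 35 in every one, with a median change of -6.05 points, but it was also lower in 91.9% of the 10500 genes with H3K4me3 at a start site at day 3, at a median of -1.49. It fell by over 10 points in 3 (Cdkn1b, Cdkn2a and Myc), beside 2.15% of all genes and 4.13% of those with H3K4me3, and rose so in 0, beside 0.157%. H3K36me3 fell by over 10 points in 4 (Cdkn1a, Cdkn1b, Cdkn2a and Cdkn2b), beside 9.87% and 18.5%, and H4K20me1 in 3 (Cdkn2a, Cdkn2b and Myc), beside 6.15% and 10.7%. H3K4me2 rose by over 10 points in 4 (Ccnd1, Cdkn1a, Cdkn1c and Cdkn2a), beside 9.17% and 12.7%, and fell so in 0, beside 0.558%. H4K20me1 rose so in 0, beside 17.9%. Below that size, H3K36me3 went from 35.7% to 27.3% at Myc and from 6.70% to 0% at Cdkn1c. H3K36me3 coverage was lower at day 35 in 8 of the 9 genes, beside 30.0% of all genes. The share was not counted over genes with H3K4me3 at a start site, where the median change was itself below 0. At Ccnd2 and Ccnd3 the change was only -0.318 and -0.534 points, near the median of -0.443 over genes with H3K4me3. Cdkn2a and Cdkn2b share an H3K36me3 region, so their losses are not separate. The count for H3K4me2 includes Cdkn2a, whose rise starts from the day 3 list without a region there. The H3K4me2 list was longer at day 35 (66645 regions over 130 Mb, against 45596 over 87.6 Mb). The H3K4me3 list was shorter at day 35 (9360 regions against 11283). With lists limited to equal length, H3K4me3 again fell by over 10 points in 3 genes, H3K36me3 in 4 and H4K20me1 in 3, and H3K4me2 rose so in 4. The higher-scoring 50% of each list gave the same counts. The part of library depth in these counts was not tested.

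Among the acetyl marks H3K27Ac rose by over 10 points in 3, beside 17.8% of all genes, H3K9Ac in 2 (Ccnd1 and Ccnd2), beside 7.10%, and H4K5Ac in 3 (Ccnd1, Ccnd2 and Cdkn1c), beside 13.4%. Falls of that size numbered 0 for each, beside 5.82%, 3.65% and 6.66%. H3K4me1, found at enhancers and promoter flanks, rose so in 1 (Ccnd1), beside 8.05%, and fell in 2, beside 9.94%: Cdkn1c (43.7% to 28.8%) and Cdkn2a (92.8% to 77.4%).

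H3K9me3 covered part of 4 of the 9 genes with their flanks at day 3 (Ccnd2, Cdkn1a, Cdkn1c and Cdkn2a) and none at day 35. The H3K9me3 list was longer at day 35, with 45063 regions against 33157. At Ccnd2 the region lay upstream of the gene. At Cdkn1c and Cdkn2a the regions were 0.5 kb wide and ranked 28558 and 30595 of 33157 by score. In 2 of them, Cdkn1a and Ccnd2, the loss was over 10 points, beside 4.17% of all genes, and a rise of over 10 points was seen in 0, beside 4.20%. At Cdkn1a the mark lay downstream of the main start, covering 82.0% of the 1 kb on each side of the start of transcript Cdkn1a-002 at day 3. Over all genes H3K9me3 was lower in 28.2% and higher in 15.2%.

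Other genes of G1 control and of the Myc network were followed with a list of 28. By the rule on the 3 acetyl marks 3 had more active chromatin at day 35, Mxd1 (H3K27Ac 33.2% to 63.9%), Mxd4 (82.1% to 97.7%) and Mnt (80.6% to 100%), beside 11.5% of all genes. They encode MAX partners that oppose MYC, and the other 2 genes of that kind on the list did not pass: Mxd3 had H3K27Ac at 74.7% and 71.9% and H4K5Ac at 72.1% and 35.9%, and Mxi1 had H3K27Ac at 28.6% and 31.5% and H3K9Ac at 26.5% and 20.2%. In 7 there was less, beside 4.11% of all genes: Ccne1 (38.3% to 19.7%) and Ccne2 (83.2% to 42.4%), the E-type cyclins, their kinase gene Cdk2 (68.0% to 54.2%), the S-phase factor gene E2f1 (84.6% to 65.0%), Trp53, which encodes p53 (50.7% to 31.4%), the INK4 gene Cdkn2c (90.5% to 77.7%) and Mycl1 (32.5% to 0%). The median H3K27Ac change of the 28 was -2.54 points, against 2.06 for the 9 genes, and these lists were not compared by a test. Within 100 kb 2 of the 28, Mxi1 and Mnt, had a VDR site with 1,25D3, beside 18.1% of all genes, and each had one without a vehicle peak. RXR sites lay near 15 of the 28, beside 45.0% of all genes.

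By their 18 coverage values (9 marks at 2 days), the genes were most alike in the pairs Ccnd1 and Ccnd2, with a root mean square difference of 15.0 points, and Ccnd1 and Myc, with 16.8. Among genes outside the windows the nearest profile to Myc was that of Btg1 (9.19 points), to Ccnd1 that of Mpg (7.03), to Ccnd2 that of Tspan4 (7.28) and to Ccnd3 that of BC030307 (3.76). For the inhibitors it was Hic1 for Cdkn1a (10.7), 0610010K14Rik for Cdkn1b (8.34), A930018M24Rik for Cdkn1c (10.2), Git1 for Cdkn2a (16.3) and Drap1 for Cdkn2b (6.92). The median difference to all genes lay between 20.4 points for Ccnd3 and 62.2 for Cdkn1b. Cdkn2a was the farthest of the 9 from its nearest gene.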

How the data were processed

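Each deposited list comes from one sample and holds the coordinates of called regions with the authors' own peak score, whose scaling is not stated. Per the submitters' processing notes the tools were Bowtie and HOMER and the build mm9; versions, cut-offs and depth are not stated there. Of 28 samples, 26 have a list, and the 2 inputs were not analysed here. Coordinates are 1-based; 0 regions passed a chromosome end of NCBIM37. A site is a peak of one replicate overlapping (1 bp or more) a peak of the other. Peak numbers were compared by exact permutation of libraries. DR3 elements were searched in the central 200 bases of sites. The sequence of 1 site is not reported here. Coverage was tested on simulated regions with known answers. The named genes were the 9 members, the gene of the start nearest to each site, listed pathway genes that passed the acetylation rule or had a VDR site, and the gene of nearest profile. Oraov1, Apold1, Pvt1 and Gm16197 were named after their values or positions were seen. Members, lists and rules were chosen with earlier results of these data known. Names of the replicate 2 factor lists, and of the histone lists, include an index tag absent from replicate 1 factor lists; each arm holds 1 of either kind. Python 3.11.15 and numpy 2.4.6 were used. Alternatives are described under the dependence on processing.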

Additional observations from a re-analysis of the deposited data

How the results depend on the processing

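Lists limited to equal length turned the difference in VDR peaks from 3 to -1.5 and in RXR peaks from 9.5 to -1. Peaks within 10 kb gave a VDR difference of 0, VDR members of 0 in both arms, and RXR members of 2 with vehicle and 3 with 1,25D3. Within 50 kb the differences were 1 (VDR) and 5 (RXR). In the higher-scoring 50% of each list VDR members with vehicle numbered 0, RXR members 1 with vehicle and 3 with 1,25D3, and the RXR difference was 2.5. Without replicate 1 or replicate 2 the differences were 3 to 3 (VDR) and 8 to 11 (RXR), RXR members 4 to 6 with vehicle (6 without replicate 2) and 7 to 8 with 1,25D3. With a replicate block the differences were again 3 and 9.5 (exact sign-flip p = 0.5 each, the smallest possible). At sites called in both arms, the log2 ratio of replicate 1 to replicate 2 score was compared between the arms. These ratios correlated at 0.307 over 281 VDR sites and 0.182 over 3434 RXR sites. They rest on 2 pairs of same-numbered libraries per factor, and the labels give no shared batch.

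Within 2 kb of start sites, 0 genes had more active chromatin, the median H3K27Ac change was 0, and 5 genes lost H3K4me3 and 1 H4K20me1 by over 10 points. With 20 kb on each side 1 gene, Cdkn1b, had less active chromatin and the median was 4.32. With 100 kb on each side 1 gene, Cdkn1a, had more, 0 lost H3K4me3 or H4K20me1 and 2 gained H3K4me2; these counts per mark were added after seeing the data. Equal lengths and merging of regions closer than 1 kb left every H3K27Ac change as it was, so they say nothing of stability. Without mismatches 0 VDR sites held the element, against 4. The causes were not tested.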
